A study of Mus musculus with 4 samples.

Results

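The genes described here are 9 transcription regulators of early B cells, taken as the rows of the deposited expression table named Ebf1, Pax5, Pou2af1, Pou2f1, Pou2f2, Bcl11a, Bach2, Mef2c and Myb. All 9 had an entry among the 23275 of the table, and all 9 were among the 12683 entries that the authors tested. RNA came from B220+CD43+ cells sorted from C57BL/6 bone marrow at 8 weeks of age. The Hdac3-deleted group (Hdac3F/-Mb1cre+/-) carried 1 conditional and 1 null allele of Hdac3, the gene of histone deacetylase 3, together with Mb1-cre, a recombinase under the control of the Cd79a (mb-1) gene and so active in B-lineage cells. The wild-type group (Hdac3+/+Mb1cre+/-) had intact Hdac3 and carried the same Mb1-cre, so both groups express the recombinase. Each group consisted of 2 libraries, and each library pooled the sorted cells of 2 mice. The table names its columns by genotype alone and gives 1 level per gene and genotype in FPKM, fragments scaled to transcript length and to the number mapped, so no value per library and no spread between libraries can be given. Library depth is unknown.

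Commitment to the B lineage rests on a small circuit of transcription factors. Ebf1 opens chromatin at B-cell genes and activates Pax5, and Pax5 in turn maintains the programme and represses genes of other lineages. The octamer-binding proteins Oct1 (Pou2f1) and Oct2 (Pou2f2) recruit the B-cell coactivator OBF-1 (Pou2af1). Bcl11a and Bach2 are mainly repressors, Mef2c is a MADS-box factor, and Myb is a factor of haematopoietic progenitors. Several of these regulators act with histone deacetylase complexes, among them the NCoR complex that contains Hdac3.

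Hdac3 itself was 22.03 FPKM in Hdac3-deleted cells and 46.8 FPKM in wild-type cells, 47.1% of the wild-type level, so the sorted population still held Hdac3 transcript. The deleted group also carries 1 null allele, and the gate can hold other cells, so this share does not measure how far Mb1-cre deleted Hdac3. Markers of the other cells that the B220+CD43+ gate can hold moved in the same samples. For comparison, 2.81% of all tested entries were higher and 4.14% lower at the authors' q under 0.05. B-cell markers were abundant, from 204 to 1195 FPKM in Hdac3-deleted cells and from 77.8 to 1523 FPKM in wild-type cells, with 2 of 9 higher (Rag1 and Dntt) and a median log2 fold change of 0.36. Plasmacytoid dendritic cell markers summed to 3100 FPKM in Hdac3-deleted cells and 2330 FPKM in wild-type cells. All 10 of them had positive fold changes, 1 rose (Cd209d), and their median log2 fold change was 0.46. Neutrophil and monocyte markers summed to 2636 FPKM in Hdac3-deleted cells and 10634 FPKM in wild-type cells, with 10 of 12 lower. Basophil and mast cell markers summed to 4.73 FPKM in Hdac3-deleted cells and 22.3 FPKM in wild-type cells, with 3 of 6 lower (Gata2 among them, which is also in the progenitor list). Plasma cell markers summed to 245 FPKM in Hdac3-deleted cells and 384 FPKM in wild-type cells, also with 3 of 6 lower. Of that sum, Igj was 93.9 FPKM in Hdac3-deleted cells and 239 FPKM in wild-type cells. By direction, 4 of the 6 were negative and 2 positive, Xbp1 at 0.22 and Prdm1 at 0.37, and these 2 did not pass the test. T, NK and innate lymphoid markers had a median of 0.18 with Eomes higher, stem and progenitor markers 0.66 with 3 of 6 tested higher and 1 lower, and of the erythroid markers Car2 was lower. No marker of these lists that had an entry was at 0 in either genotype. The part of these cells in the levels of the 9 genes was not tested.

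**Figure D1:**
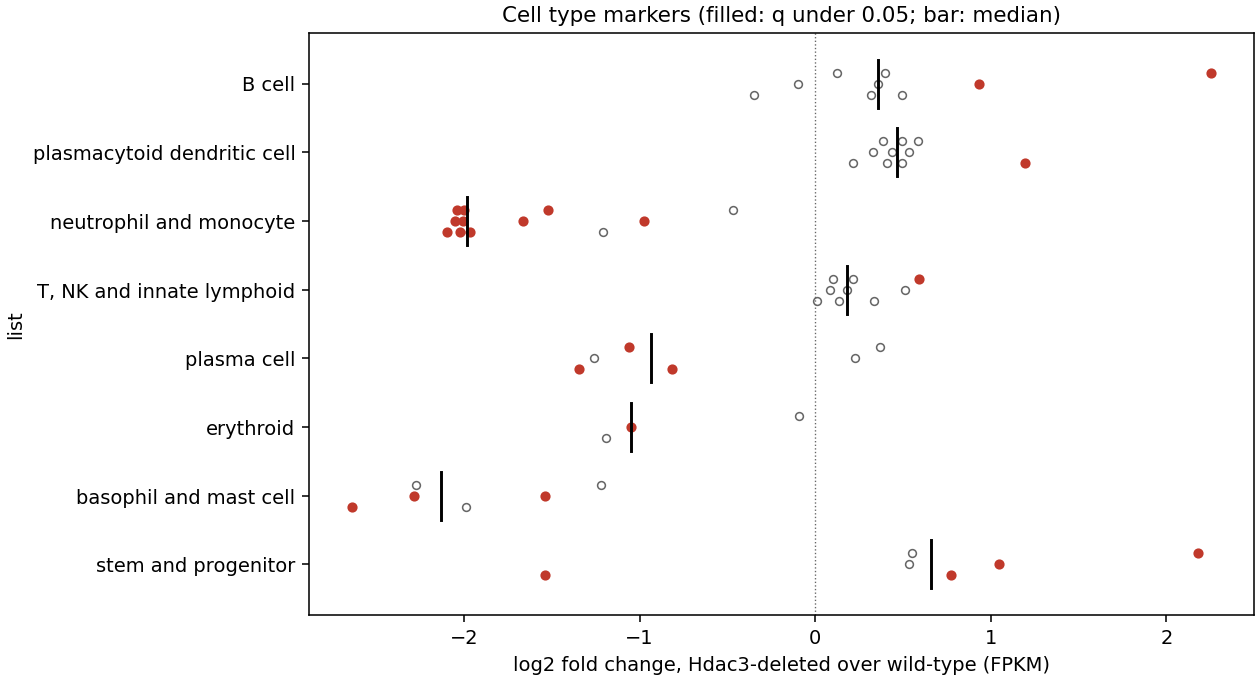
Log2 fold change, Hdac3-deleted over wild-type, of each tested marker gene in 8 lists of cell type markers; filled points were called at a q under 0.05 and the bar is the list's median. Neutrophil and monocyte markers have a median of -1.98, and plasmacytoid dendritic cell markers lie wholly above 0; relative to B-cell markers all values would lie 0.36 lower.

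Of the 9 genes, 1 rose in Hdac3-deleted cells at a q under 0.05 in the authors' deposited table, and that gene was Pax5. None fell in the authors' Cuffdiff test, and none of the genes with a negative fold change had an unadjusted p under 0.05 (0 of 2). The share that rose was 11.1% of the members, against 2.81% of all tested entries (higher) and 3.07% of tested entries with at least 10 FPKM in 1 genotype, a level that all 9 members reached. The share of all tested entries that fell was 4.14%, and 6.95% were called in either direction. With 9 genes, 1 call is the smallest count above 0, so the share is given as a description. An unadjusted p under 0.05 was found for 3 of the 9 genes (Pax5, Ebf1 and Myb, 33.3%), against 17.1% of all tested entries. On the log2 scale, the 9 fold changes had a median of 0.10, against 0.03 for all tested entries. As point values, the 9 fell into 2 ranges. Pax5, Myb, Ebf1 and Bcl11a lay above 0.4 on the log2 scale, and the other 5 lay between -0.10 and 0.10.

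Pax5, which encodes the paired-domain protein that holds cells in the B lineage, was 121 FPKM in Hdac3-deleted cells and 79.7 FPKM in wild-type cells. This is a 1.52-fold increase, or 0.60 on the log2 scale, with p = 0.0022 and q = 0.0354 in the authors' deposited table. Its log2 fold change was exceeded by 6.11% of all tested entries. The call did not hold at a q under 0.01, nor when a p was taken from a normal distribution for the deposited statistic, which gave q = 0.414. The 95% interval from that approximation ran from 1.02-fold to 2.26-fold. The entry of Pax5 spans chromosome 4 from 44531506 to 44710440 (mm10). In the reference annotation its exons overlap the opposite-strand genes Gm12462 and 5730488B01Rik and their reads cannot be told apart if strand was not kept, which the sources do not state. In such bulk RNA, fewer cells of a type and less RNA per cell cannot be told apart.

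Ebf1, the pioneer factor upstream of Pax5, was 107 FPKM in Hdac3-deleted cells and 77.4 FPKM in wild-type cells. The ratio was 1.38, and the difference did not pass the test (p = 0.0197 and q = 0.165 in the authors' deposited table). The 95% interval of the ratio, from 0.94 to 2.05, includes 1, and it does not show that Ebf1 was equal in both genotypes. Ebf1 lies on chromosome 11 from 44618134 to 45005172, and no exon of another annotated gene overlaps its exons. The ratio of Pax5 to Ebf1 levels was 1.13 in Hdac3-deleted cells and 1.03 in wild-type cells. Whether the changes of the 2 genes differ was not tested, since it would need values per library.

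The bases upstream of annotated start sites were searched on both strands for 3 motifs, the Ebf1 core CCCNNGGGA, the octamer ATGCAAAT and the Bach2 and Maf site TGANTCAGC. Windows were the 250 bases before each start in the RefSeq promoters of GRCm38.p6, which is the mm10 assembly. All 9 members had windows, 14 in all, and 0 of the 14 held any of the 3 motifs, against 5.60%, 1.601% and 1.02% of the 32851 windows of all genes. Among genes activated by Ebf1 or Pax5, 5 of 30 windows held the Ebf1 core and 2 of 30 the octamer. In the other lists described below, the Ebf1 core ran from 0 of 13 windows (corepressors of Bcl11a) to 4 of 10 (genes linked to Myb). It was in 3 of 17 windows of relatives of the 9 members. The octamer ran from 0 of 4 windows (genes linked to the Oct factors) to 1 of 12 (Mef2c partners). The Bach2 and Maf site was in 0 of 9 windows of Bach2 partners and repressed genes. Of the 5 activated genes with the Ebf1 core, Foxo1 rose. Cd55, Ceacam1, Cd22 and Cplx2 did not pass the test, with log2 fold changes of -0.25, 0.07, -0.48 and 0.14. Of the 2 activated genes with the octamer, Blnk rose, and Vpreb3, at a log2 fold change of -0.10, did not pass. A match is a description of letters and does not show binding. The window of Pax5 is shown because Pax5 was the member that rose, and stretches around a match are shown for 2 of the genes that rose with it, Foxo1 with the Ebf1 core and Blnk with the octamer, each match in capitals. The Foxo1 match reads as the core on both strands, and it begins 92 bases before the start site, while that of Blnk begins 130 bases before it. They lie at chr4:44710695-44710944 (minus strand), chr3:52268185-52268314 (plus strand) and chr19:40994333-40994362 (minus strand). Pax5 has this 1 window only. Its entry, on the minus strand, begins at 44710440, and the bases directly upstream of that position were not searched.
Pax5: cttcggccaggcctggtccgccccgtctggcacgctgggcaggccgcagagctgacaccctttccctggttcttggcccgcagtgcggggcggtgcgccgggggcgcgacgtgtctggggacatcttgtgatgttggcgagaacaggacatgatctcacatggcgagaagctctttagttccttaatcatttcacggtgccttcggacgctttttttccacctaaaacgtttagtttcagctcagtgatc
Foxo1: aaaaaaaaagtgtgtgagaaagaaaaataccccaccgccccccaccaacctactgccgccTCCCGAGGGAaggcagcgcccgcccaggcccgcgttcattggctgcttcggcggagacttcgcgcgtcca
Blnk: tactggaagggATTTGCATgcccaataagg

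**Figure D2:**
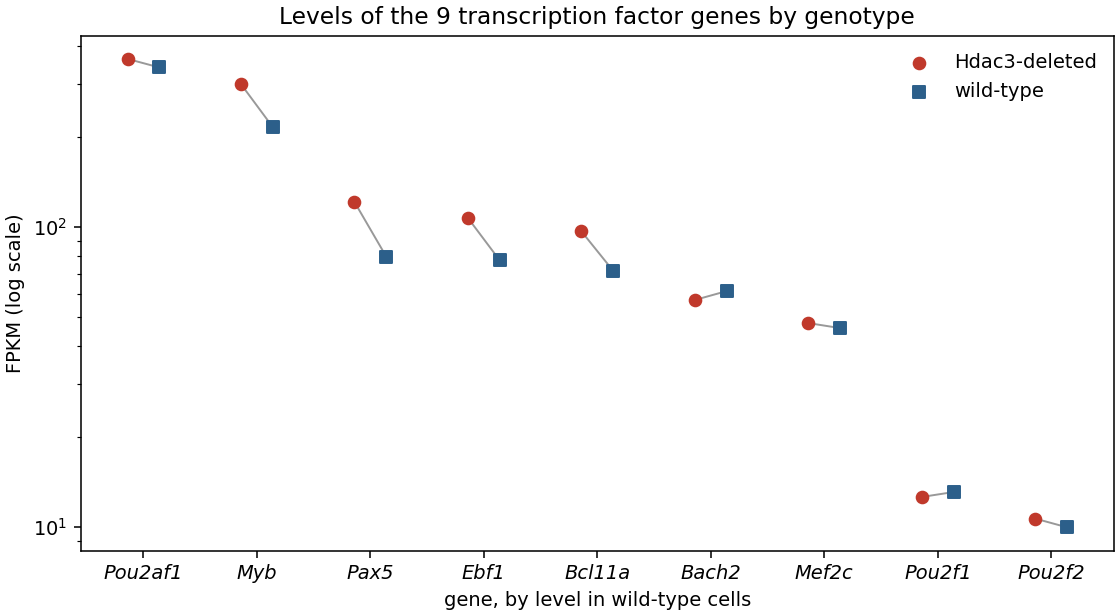
Level of each gene in FPKM on a log scale, with Hdac3-deleted cells as circles to the left and wild-type cells as squares to the right. Each point is the authors' value for 1 genotype, without an error bar because no value per library was used, and the order of the genes is the same in both genotypes, from Pou2af1 to Pou2f2.

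The order of the 9 levels was identical in both genotypes. Pou2af1 was highest, followed by Myb, Pax5, Ebf1, Bcl11a, Bach2, Mef2c, Pou2f1 and Pou2f2. The span was 33.9-fold in Hdac3-deleted cells, 10.7 to 363 FPKM, and 34.0-fold in wild-type cells, 9.997 to 340 FPKM. Among all tested entries, Pou2af1 was above 98.4% in Hdac3-deleted cells and above 98.2% in wild-type cells. Pou2f2 was above 44.9% in Hdac3-deleted cells and 43.4% in wild-type cells, near the middle of the tested entries. FPKM is scaled to transcript length, which allows levels of different genes to be compared. Without a spread between libraries, it cannot be said which neighbours in this order differ, and Pax5 and Ebf1 in wild-type cells, as well as Pou2f1 and Pou2f2 in either genotype, were close to each other.

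The octamer group showed ratios near 1. Pou2af1, the coactivator without DNA-binding specificity of its own, was 363 FPKM in Hdac3-deleted cells and 340 FPKM in wild-type cells, a ratio of 1.07 (q = 0.925 in the authors' deposited table). The 95% interval on the log2 scale ran from -0.49 to 0.68. Pou2f1, the ubiquitous Oct1, was 12.6 FPKM in Hdac3-deleted cells and 13.1 FPKM in wild-type cells. Pou2f2, the Oct2 protein enriched in lymphoid cells, was 10.7 FPKM in Hdac3-deleted cells and 9.997 FPKM in wild-type cells. Neither Oct gene passed the test, with q = 0.956 for Pou2f1 and 0.902 for Pou2f2 in the authors' deposited table. Their intervals on the log2 scale ran from -0.64 to 0.53 for Pou2f1 and from -0.54 to 0.73 for Pou2f2. The coactivator transcript exceeded the sum of both Oct transcripts 15.6-fold in Hdac3-deleted cells and 14.7-fold in wild-type cells. Pou2f1 shares its locus in the table with Cd247, a gene on the opposite strand whose exons overlap it, and Cd247 was 12.1 FPKM in Hdac3-deleted cells and 9.40 FPKM in wild-type cells. The level of Pou2f1 is less certain for this reason. In mm10 the entries span chromosome 9 from 51213690 to 51240079 for Pou2af1, chromosome 1 from 165788681 to 166002634 for Pou2f1 and chromosome 7 from 25091115 to 25132460 for Pou2f2. An exon of Pou2f2 overlaps the microRNA gene Mir6537 on the same strand.

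Of the repressors, Bcl11a was 96.7 FPKM in Hdac3-deleted cells and 71.4 FPKM in wild-type cells. This zinc finger protein is required for early B-cell development and is also made in plasmacytoid dendritic cells. Its ratio of 1.35 did not pass the test (q = 0.366 in the authors' deposited table), and the interval from 0.83 to 2.20 was the widest of the 9 on the log2 scale. The plasmacytoid dendritic cell markers, with a median of 0.46, lay near the 0.44 of Bcl11a, and their part in it was not tested. Bach2, which represses plasma cell and myeloid genes in B cells, was 57.2 FPKM in Hdac3-deleted cells and 61.2 FPKM in wild-type cells. Its log2 fold change of -0.10 was the lowest of the 9 and did not pass the test (q = 0.912 in the authors' deposited table, 95% interval -0.68 to 0.49). Bach2 shares its locus with the entry BC024582, at 7.02 FPKM in Hdac3-deleted cells and 8.29 FPKM in wild-type cells, so its level is less certain. Bcl11a spans chromosome 11 from 24078056 to 24173558 and Bach2 chromosome 4 from 32417435 to 32586108. Each has exons that overlap an opposite-strand gene, 4930538E20Rik for Bcl11a and Bach2os for Bach2.

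Mef2c, a MADS-box factor that supports lymphoid development and is bound by class IIa histone deacetylases, was 47.9 FPKM in Hdac3-deleted cells and 46.1 FPKM in wild-type cells. The ratio was 1.04, with q = 0.952 in the authors' deposited table and an interval from 0.71 to 1.53. Myb, which is needed for progenitors to enter and pass the pro-B stage, was 299 FPKM in Hdac3-deleted cells and 215 FPKM in wild-type cells. The difference of 83.8 FPKM was the largest of the 9 in absolute terms, but the ratio of 1.39 did not pass the test (p = 0.0435 and q = 0.269 in the authors' deposited table). Its interval ran from 0.87 to 2.21. Mef2c spans chromosome 13 from 83504034 to 83667079, with no overlapping exon of another gene. Myb spans chromosome 10 from 21124930 to 21160984, and its exons overlap the opposite-strand gene Gm26577.

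**Figure D3:**
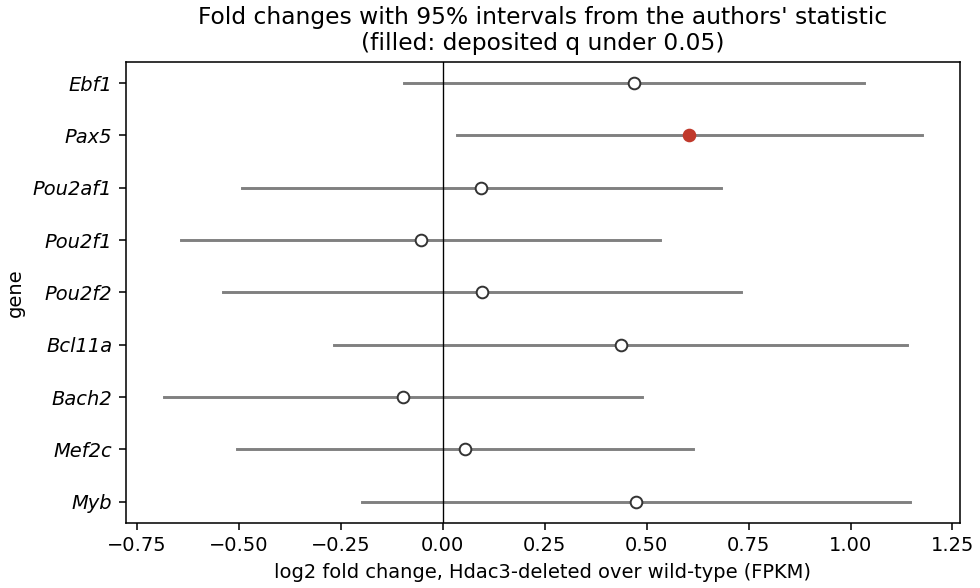
Log2 fold change of FPKM, Hdac3-deleted over wild-type, for each gene, with the 95% interval from a normal approximation to the authors' statistic as a line; a filled point marks a deposited q under 0.05. Pax5 alone is filled, and the lines of the other 8 genes cross 0. Ebf1 and Myb are among these 8 although their deposited unadjusted p is under 0.05. Relative to B-cell markers, the points of Pou2af1, Pou2f2 and Mef2c would lie below 0.

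All values above are relative to the authors' scaling of the libraries. Relative to the median log2 fold change of 9 B-cell markers, 0.36, the values of Pou2af1, Pou2f2 and Mef2c turned negative, at -0.26, -0.26 and -0.30. The values of Pax5, Ebf1, Bcl11a and Myb remained positive, at 0.25, 0.11, 0.08 and 0.12. The difference of Pax5 relative to these markers was not tested.

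**Figure D4:**
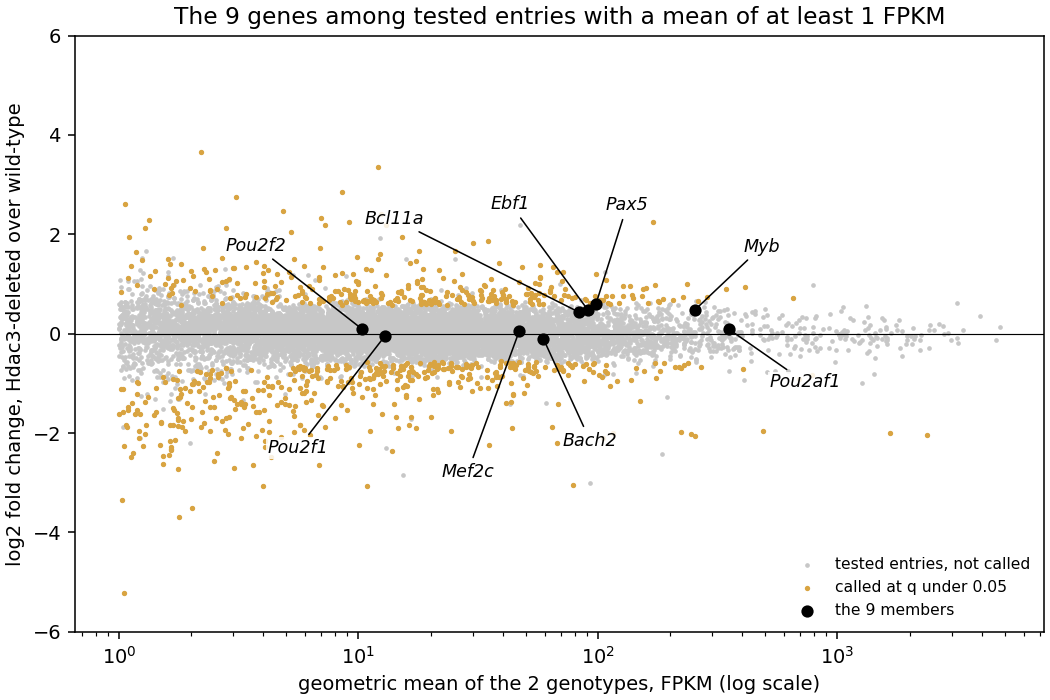
Log2 fold change, Hdac3-deleted over wild-type, against the geometric mean of both genotypes in FPKM on a log scale, for the 11316 tested entries with a mean of at least 1 FPKM. Black points are the 9 genes and gold points the entries called at a q under 0.05; the 9 lie in the body of the cloud, and 6.11% of all tested entries lie above Pax5.

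In most of their families the members were the expressed genes. Ebf1 made up 99.98% of the summed FPKM of Ebf1 to Ebf4 in Hdac3-deleted cells and 99.9% in wild-type cells, and Ebf2 was listed at 0 in both. Pax5 made up 99.8% of the 9 Pax genes in both genotypes. No other Pax gene exceeded 0.174 FPKM in Hdac3-deleted cells or 0.115 FPKM in wild-type cells, the level of Pax7. Pou2f3 was listed at 0 in both genotypes, and Bcl11b, a T-lineage factor, was 0.339 FPKM in Hdac3-deleted cells and 0.275 FPKM in wild-type cells. The Bach and Mef2 families were mixed. Bach1, a widely expressed relative of Bach2, was 13.1 FPKM in Hdac3-deleted cells and 10.5 FPKM in wild-type cells. Mef2c was 27.4% of the Mef2 sum in Hdac3-deleted cells and 29.9% in wild-type cells, behind Mef2d at 85.2 FPKM in Hdac3-deleted cells and 74.8 FPKM in wild-type cells. Mybl2 (B-Myb), a cell-cycle-linked relative of Myb, was 19.3 FPKM in Hdac3-deleted cells and 24.7 FPKM in wild-type cells. Of the 19 relatives, 6 were tested and 0 were called by the authors' Cuffdiff test, against 6.95% of all tested entries. Mybl1 alone had an unadjusted p under 0.05 (p = 0.0259 in the authors' deposited table, at 2.86 FPKM in Hdac3-deleted cells and 4.14 FPKM in wild-type cells), and the normal approximation called 0.

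The genes nearest to Ebf1 in the plane of both levels were Cd4, at 104 FPKM in Hdac3-deleted cells and 79.4 FPKM in wild-type cells, and Zfp36l1, at 111 FPKM in Hdac3-deleted cells and 75.8 FPKM in wild-type cells. Their distances were 0.05 and 0.06 log2 units. The genes nearest to Pax5 were Cd68, at 116 FPKM in Hdac3-deleted cells and 78.7 FPKM in wild-type cells, and Clint1, at 115 FPKM in Hdac3-deleted cells and 78.6 FPKM in wild-type cells. They lay 0.07 and 0.08 log2 units from it. Likeness here rests on 1 value per genotype, and 9 genes lay within 0.1 log2 units of Ebf1 and 3 within that distance of Pax5.

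Genes known to be activated by Ebf1 or Pax5 moved in both directions. Of 28 tested, 7 rose and 5 fell, and the median log2 fold change was 0.21. Among all tested entries, 2.81% rose and 4.14% fell. The list was chosen with earlier results known, so its counts are a description. Those that rose were Rag2, Lef1, Bst1, Foxo1, Blnk, Igll1 and Vpreb1. Igll1 and Vpreb1, which encode the surrogate light chain of the pre-B-cell receptor, rose 1.64-fold and 1.57-fold, to 834 and 327 FPKM in Hdac3-deleted cells, against 509 and 208 FPKM in wild-type cells. Blnk, the adaptor downstream of that receptor, with the octamer in its upstream window, rose 1.68-fold to 370 FPKM in Hdac3-deleted cells, against 220 FPKM in wild-type cells. Foxo1, a forkhead factor that drives Rag expression and whose upstream window holds the Ebf1 core, was 2.03-fold higher at 77.6 FPKM in Hdac3-deleted cells, against 38.3 FPKM in wild-type cells. Bst1, a surface ADP-ribosyl cyclase of bone marrow B cells, rose 2.06-fold to 67.2 FPKM in Hdac3-deleted cells, against 32.6 FPKM in wild-type cells. Lef1, a Wnt pathway factor, rose 2.37-fold to 110 FPKM in Hdac3-deleted cells, against 46.6 FPKM in wild-type cells. Rag2 (92.3 FPKM in Hdac3-deleted cells and 35.5 FPKM in wild-type cells) shares its locus with another entry and is less certain.

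The 5 that fell were Cr2, Fcer2a, Cd72, Fcrla and Blk. Cr2 and Fcer2a, which encode the complement receptor CD21 and the low-affinity IgE receptor CD23 of mature B cells, were low in both genotypes. Cr2 was 0.106 FPKM in Hdac3-deleted cells and 0.546 FPKM in wild-type cells, and Fcer2a was 0.952 FPKM in Hdac3-deleted cells and 3.52 FPKM in wild-type cells. Fcrla, an intracellular Fc receptor-like protein of B cells, fell 1.87-fold to 128 FPKM in Hdac3-deleted cells, against 240 FPKM in wild-type cells. Blk, a Src family kinase, fell 1.59-fold to 42.8 FPKM in Hdac3-deleted cells, against 68.2 FPKM in wild-type cells. Cd72, an inhibitory receptor, fell 1.92-fold to 99.5 FPKM in Hdac3-deleted cells, against 191 FPKM in wild-type cells, and shares its locus with another entry. The normal approximation called 4 higher and 3 lower genes of this list, and the Pax5 target Cd79a did not pass the deposited test. Cd79a was 334 FPKM in Hdac3-deleted cells and 268 FPKM in wild-type cells.

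Of 14 genes known to be repressed by Pax5, none rose in the authors' Cuffdiff test and 5 fell, against 2.81% and 4.14% of all tested entries. Their median log2 fold change was 0.19 and their mean -0.22, opposite in sign. An unadjusted p under 0.05 was found for 5 genes with positive values and 6 with negative values, and the normal approximation called 0 higher and 4 lower. The 5 that fell were Csf1r, Igj, Ccl9, Ccl3 and Sdc1. Csf1r, the macrophage growth factor receptor, was 1.79 FPKM in Hdac3-deleted cells and 5.16 FPKM in wild-type cells. Igj, the joining chain of secreted immunoglobulin, was 93.9 FPKM in Hdac3-deleted cells and 239 FPKM in wild-type cells. The chemokine genes Ccl9 and Ccl3 were 2.89 and 11.9 FPKM in Hdac3-deleted cells, against 5.66 and 22.7 FPKM in wild-type cells. Sdc1, the plasma cell surface proteoglycan CD138, was 13.0 FPKM in Hdac3-deleted cells and 23.0 FPKM in wild-type cells. Csf1r is also in the myeloid marker list, and Igj and Sdc1 are also in the plasma cell list, both of which had lower members in the same samples. Flt3, the cytokine receptor of early progenitors, and Notch1, the receptor of T-lineage specification, were 60.5 and 29.1 FPKM in Hdac3-deleted cells, against 41.8 and 20.6 FPKM in wild-type cells, and did not pass the test.

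**Figure D5:**
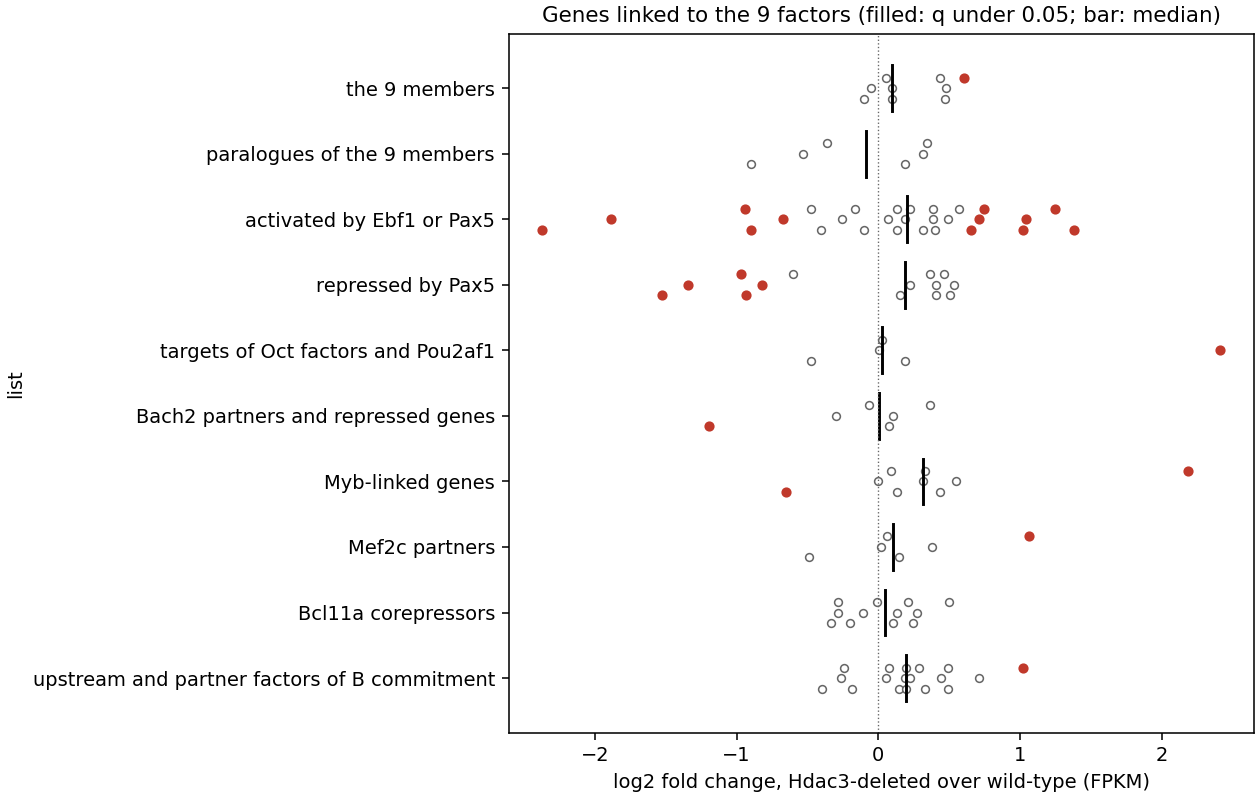
Log2 fold change, Hdac3-deleted over wild-type, of each tested gene in the 9 members and in 9 lists of relatives, known targets and partners; filled points were called at a q under 0.05 and the bar is the list's median. Genes activated by Ebf1 or Pax5 spread from -2.37 to 1.38; relative to B-cell markers all medians would lie below 0.

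Lists of known targets and partners of the other members, and of upstream factors, held 0 to 2 called genes each. The share of all tested entries called in either direction was 6.95%, with 2.81% higher and 4.14% lower. Of 5 genes linked to the Oct factors and Pou2af1, Cxcr5 was the 1 that rose, at 28.6 FPKM in Hdac3-deleted cells and 5.37 FPKM in wild-type cells, while Btk was 70.4 FPKM in Hdac3-deleted cells and 69.2 FPKM in wild-type cells. Of 6 tested Bach2 partners and repressed genes, Cebpb, a myeloid factor gene, was the 1 that fell, at 3.91 FPKM in Hdac3-deleted cells and 8.94 FPKM in wild-type cells, in the samples in which neutrophil and monocyte markers were lower. Prdm1, the plasma cell regulator that Bach2 represses, was 2.16 FPKM in Hdac3-deleted cells and 1.67 FPKM in wild-type cells and did not pass the test. Of 9 genes linked to Myb, Kit, a receptor tyrosine kinase of progenitors that is also in the stem and progenitor list, was 4.54-fold higher at 27.8 FPKM in Hdac3-deleted cells, against 6.13 FPKM in wild-type cells, and Gfi1 fell 1.57-fold to 5.98 FPKM in Hdac3-deleted cells, against 9.38 FPKM in wild-type cells. Of 6 genes that act on Mef2 proteins, Hdac7, a class IIa deacetylase, rose 2.09-fold to 103 FPKM in Hdac3-deleted cells, against 49.1 FPKM in wild-type cells, and its entry shares a locus with another. Of 12 genes of the NuRD and Lsd1 corepressors that act with Bcl11a, 0 were called by the authors' Cuffdiff test or by the normal approximation, and 1 (Mta3, 61.8 FPKM in Hdac3-deleted cells and 43.9 FPKM in wild-type cells) had an unadjusted p under 0.05. The most abundant were Rbbp7, at 128 FPKM in Hdac3-deleted cells and 157 FPKM in wild-type cells, and Mta2, at 140 FPKM in Hdac3-deleted cells and 127 FPKM in wild-type cells. Of 18 upstream and partner factors, Foxo1 was the 1 that rose. Among those that did not pass were Tcf3 (E2A), at 188 FPKM in Hdac3-deleted cells and 170 FPKM in wild-type cells, and Ikzf1 (Ikaros), at 147 FPKM in Hdac3-deleted cells and 193 FPKM in wild-type cells. The medians of these 6 lists lay between 0.01 and 0.32 on the log2 scale, and the Bach2 list, with a median of 0.01, had a mean of -0.17. Relative to B-cell markers all 6 medians were below 0.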

How the data were processed

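RNA was measured in 4 libraries, 2 Hdac3-deleted and 2 wild-type, grouped by the labels. Per the labels' protocols, total RNA was extracted with Trizol and sequenced as polyadenylated RNA after an Illumina library preparation. Per the submitters' processing notes, Trimmomatic 0.32, TopHat2 2.0.11 and Cuffdiff 2.1.1 were used with the mm10 build, and no source names the options, annotation or scaling. Per the file headers, the deposited table holds 1 FPKM value per gene for WT and 1 for KO, taken here as the authors' value over both libraries of each genotype. It also holds the authors' test statistic, a score, and their p-value and q-value; the q-values equal a Benjamini-Hochberg adjustment over all tested entries.

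The deposited fold change was not used, because 688 of its cells hold spreadsheet errors. FPKM ratios were formed in its place, without a pseudocount. A gene was called at the authors' q-value under 0.05, a test across all genes. Intervals use the log2 fold change divided by the authors' statistic as standard error and a normal quantile of 1.96. This approximation does not equal the authors' p-values: for Pax5 it gives p = 0.0378 where the authors' deposited table gives 0.0022. For Ebf1 it gives 0.104 against 0.0197, and for Myb 0.166 against 0.0435. How the authors' test estimated the spread behind its p-values is not stated. Table positions were shifted to count from 1, and Spi1 was matched through its older symbol Sfpi1.

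The 9 members and the gene lists were chosen with earlier results of these data known. Some genes stand in 2 lists. Named genes were all members, in each list the called genes (at most 6, ranked by q and then by size of change), otherwise its 2 most abundant, the most abundant relatives, and the 2 nearest genes of Ebf1 and Pax5. All other genes given with values were chosen after those were seen, among them Blnk, Igll1, Vpreb1, Fcrla, Cd72, Blk, Cd79a, Flt3, Notch1, Mybl1, Btk, Prdm1, Mta3, Tcf3 and Ikzf1. The motifs, the sequences shown and the 10 FPKM level were also chosen after seeing the data. The calculation of the normal approximation, adjustment and list median was checked on simulated data. These were drawn from a normal distribution with the standard errors that the approximation assumes. The check therefore cannot show whether the approximation fits the authors' statistic. Alternatives varied the q threshold, fold minimum, statistic, filters, pseudocount and scaling. Software was scipy 1.17.1, numpy 2.4.6, pandas 2.3.3 and matplotlib 3.10.9 under Python 3.11.15.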

Additional observations from a re-analysis of the deposited data

How the results depend on the processing

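The count of 1 higher and 0 lower members held at a q under 0.1, with at least 1.5-fold, with at least 1 FPKM in both genotypes, without shared loci and, chosen after seeing the data, with at least 10 FPKM in 1 genotype. It was 0 higher at a q under 0.01 and 0 higher with the normal approximation; in both, Pax5 lost its call. Over all genes, against 356 higher and 525 lower, a q under 0.01 gave 189 and 345, and the normal approximation 136 and 335. The 10 FPKM level, which keeps a part of the same calls without a new test, gave 230 and 256. Why the approximation calls fewer was not tested. Of 45 member fold changes under another scaling, pseudocount or filter, 42 kept their direction, which is no sign of robustness. A pseudocount cannot change a sign, and the 1 FPKM filter left out none of the members. Centring on the median gene subtracts 0.02 and scaling to TPM -0.04. Both are smaller in size than every member's value, the smallest being -0.05 for Pou2f1. Centring on B-cell markers subtracts 0.36 and by construction turned 3, namely Pou2af1 (-0.26), Pou2f2 (-0.26) and Mef2c (-0.30), and the members' median (-0.26). It also turned the medians of genes activated by Ebf1 or Pax5 (-0.15) or repressed by Pax5 (-0.17), of genes linked to Oct factors (-0.33), Bach2 (-0.35), Myb (-0.040), Mef2c (-0.26) and Bcl11a (-0.31), and of upstream factors (-0.16). The median of the relatives was -0.09 but 0.19 with at least 1 FPKM in both genotypes, which leaves out Mef2b, and 0.0063 with a pseudocount of 1. No paired analysis was possible because the table holds 1 value per genotype, and for the same reason leaving out each library was not run. The depth that limits the low genes is unknown.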
